A study of Mus musculus with 2 samples.

Results

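The genes followed here, 10 in number, belong to the choroid plexus epithelium and were measured in single-cell libraries of mouse dorsal meninges. They are Ttr, Enpp2, Kl, Clic6, Folr1, Otx2, Aqp1, Kcnj13, Sostdc1 and Slc4a5, chosen by symbol as 10 of the 32285 genes in the count matrices, and all 10 were found. The mice were male C57BL/6 animals (C57BL/6J wild type in the study's methods) given as 10 weeks old, with a range of 10 to 12 weeks in another field. One group, TBI, received a mild closed-skull traumatic brain injury, and the other, Sham, a sham procedure. Meninges were taken 1 week later, and the tissue of 5 mice was pooled into 1 library per group. Both groups went through the same collagenase digestion and the same sort for single cells that exclude the dye DAPI. With 1 pooled library per group there was no replicate, so no test between the groups was possible. Differences between animals, in dissection or in the handling of each library cannot be told apart from the effect of the procedure. Ranges in parentheses are 95% counting intervals (exact Poisson for levels, exact binomial for ratios and shares) and cover counting error only.

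The choroid plexus is a folded sheet of epithelial cells that hangs in the brain ventricles and makes cerebrospinal fluid by moving ions and water from blood to ventricle. The same cells secrete carrier proteins and signalling molecules into that fluid, and transthyretin, the product of Ttr, is their most abundant secreted protein. The tissue lies below the brain surface and is not a layer of the meninges, although the pia joins it where it enters the ventricles, so its cells in a dorsal meningeal preparation were carried along or attached. Ttr carries thyroid hormone and, with retinol-binding protein, vitamin A. Enpp2 encodes autotaxin, a secreted enzyme that makes lysophosphatidic acid, and Sostdc1 a secreted antagonist of BMP and Wnt signals. Kl encodes klotho, the co-receptor for FGF23, and Folr1 the folate receptor alpha. Aqp1 is a water channel, Kcnj13 the potassium channel Kir7.1, Slc4a5 a sodium bicarbonate cotransporter and Clic6 a member of the chloride intracellular channel family. Otx2 is a homeodomain transcription factor needed for choroid plexus formation, and is also expressed in the pineal gland and retina.

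The Sham library held 9527334 unique molecular identifiers (UMIs, each counting 1 captured transcript) in 2699 barcodes, and the TBI library 15011079 in 4349. After the limits on genes, mitochondrial UMIs and hemoglobin UMIs, 2043 Sham and 3773 TBI cells were kept, with medians of 2764 and 2663 UMIs. Clustering without the 10 genes gave 26 clusters, 1 of which carried the choroid plexus markers, and it was called choroid plexus-like. It held 59 Sham cells, 2.89% (2.21 to 3.71), and 133 TBI cells, 3.53% (2.96 to 4.16), a difference of 0.637 percentage points (-0.298 to 1.57 by a normal approximation). Of 21 markers fixed for the class, none of them among the 10 genes, 20 were in the matrices. The name rests on the 9 of them among the 50 leading genes of the cluster. The markers come largely from the study's own tables of the same libraries, so they are not an independent ground for it. All 20 had a UMI in the cluster, but so did all 14 macrophage markers, so this is no further support for the name. The summed level of the 20 was 8000 counts per 1e6 UMIs (CPM) in Sham and 7165 in TBI. The 8 predicted doublets in the class were all TBI cells. A total of 20 barcodes occurred in both libraries, and none was choroid plexus-like in both.

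The 10 genes lie on 9 mouse chromosomes in the GRCm38 build. RefSeq windows before the start site (GRCm38.p6) were found for Kl, Otx2, Aqp1, Kcnj13 and Slc4a5. The 250 bases before the start are shown, on the strand of the gene, for 3 genes whose distributions over cell classes differed: Kcnj13 (chr1:87394730-87394979, minus strand), with 94.9% of its Sham and 88.8% of its TBI UMIs in choroid plexus-like cells, Otx2 (chr14:48665110-48665359, minus strand, 1 of its 4 windows), shared with pineal gland-like cells, and Aqp1 (chr6:55336049-55336298, plus strand), which had most of its UMIs in endothelial-like cells. Capitals mark the homeodomain core TAATCC or its reverse complement GGATTA, which Otx2 and its relative Crx are known to bind.
Kcnj13: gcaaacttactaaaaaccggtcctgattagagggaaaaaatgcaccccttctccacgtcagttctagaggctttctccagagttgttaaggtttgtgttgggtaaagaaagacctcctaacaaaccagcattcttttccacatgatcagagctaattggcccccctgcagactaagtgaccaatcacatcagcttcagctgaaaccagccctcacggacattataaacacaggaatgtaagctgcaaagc
Otx2: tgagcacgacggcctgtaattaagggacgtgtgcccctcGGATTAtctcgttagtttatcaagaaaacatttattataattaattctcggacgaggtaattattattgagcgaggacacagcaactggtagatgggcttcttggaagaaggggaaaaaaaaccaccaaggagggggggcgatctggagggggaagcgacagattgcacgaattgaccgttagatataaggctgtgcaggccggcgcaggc
Aqp1: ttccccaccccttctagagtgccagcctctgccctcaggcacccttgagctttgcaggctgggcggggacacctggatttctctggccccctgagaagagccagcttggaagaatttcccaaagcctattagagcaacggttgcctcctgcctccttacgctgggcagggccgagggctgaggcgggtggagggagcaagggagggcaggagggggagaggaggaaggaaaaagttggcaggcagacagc
The motif was searched on both strands, where a match on 1 strand is the complement on the other. It occurred in 1 of the 8 windows of these genes, the Otx2 window shown, and in 6.25% of all 32851 windows. The GC content was 45.2% in the Kcnj13 window, 48.4% in the Otx2 window and 62.0% in the Aqp1 window, where the median over all windows was 52.4%. Gene bodies of Enpp2, Clic6, Folr1, Otx2 and Kcnj13 overlap another annotated gene. In choroid plexus-like cells such a neighbour held at most 18 Sham UMIs (Gm26684, which overlaps Enpp2) and 33 TBI UMIs (the antisense Otx2os1).

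The 10 genes made up a large part of the RNA of choroid plexus-like cells. Their sum was 24.8% of the 320368 Sham UMIs of the class and 25.2% of the 773035 TBI UMIs. Ttr alone made up 22.3% and 23.3%, and Enpp2 2.14% and 1.63%. Reads came from transcript 3′ ends, about 1 tag per transcript, so levels of different genes are set side by side as CPM without scaling by length. In Sham, Ttr stood at 222656 CPM and Enpp2 at 21416 CPM. Kl with 958 CPM (854 to 1072) and Sostdc1 with 952 CPM (848 to 1065) followed, and their intervals overlapped. Clic6, Folr1 and Kcnj13 came next at 627, 624 and 581 CPM, again not separable. Otx2 at 225 CPM (176 to 283) and Slc4a5 at 172 CPM (129 to 223) overlapped, and Aqp1 was lowest at 62.4 CPM (38.1 to 96.4). In TBI the order was close to this, with Sostdc1 (733 CPM, 674 to 796) above Kl (604 CPM, 551 to 661) and Otx2 (238 CPM, 205 to 275) above Slc4a5 (99.6 CPM, 78.6 to 124).

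**Figure D1:**
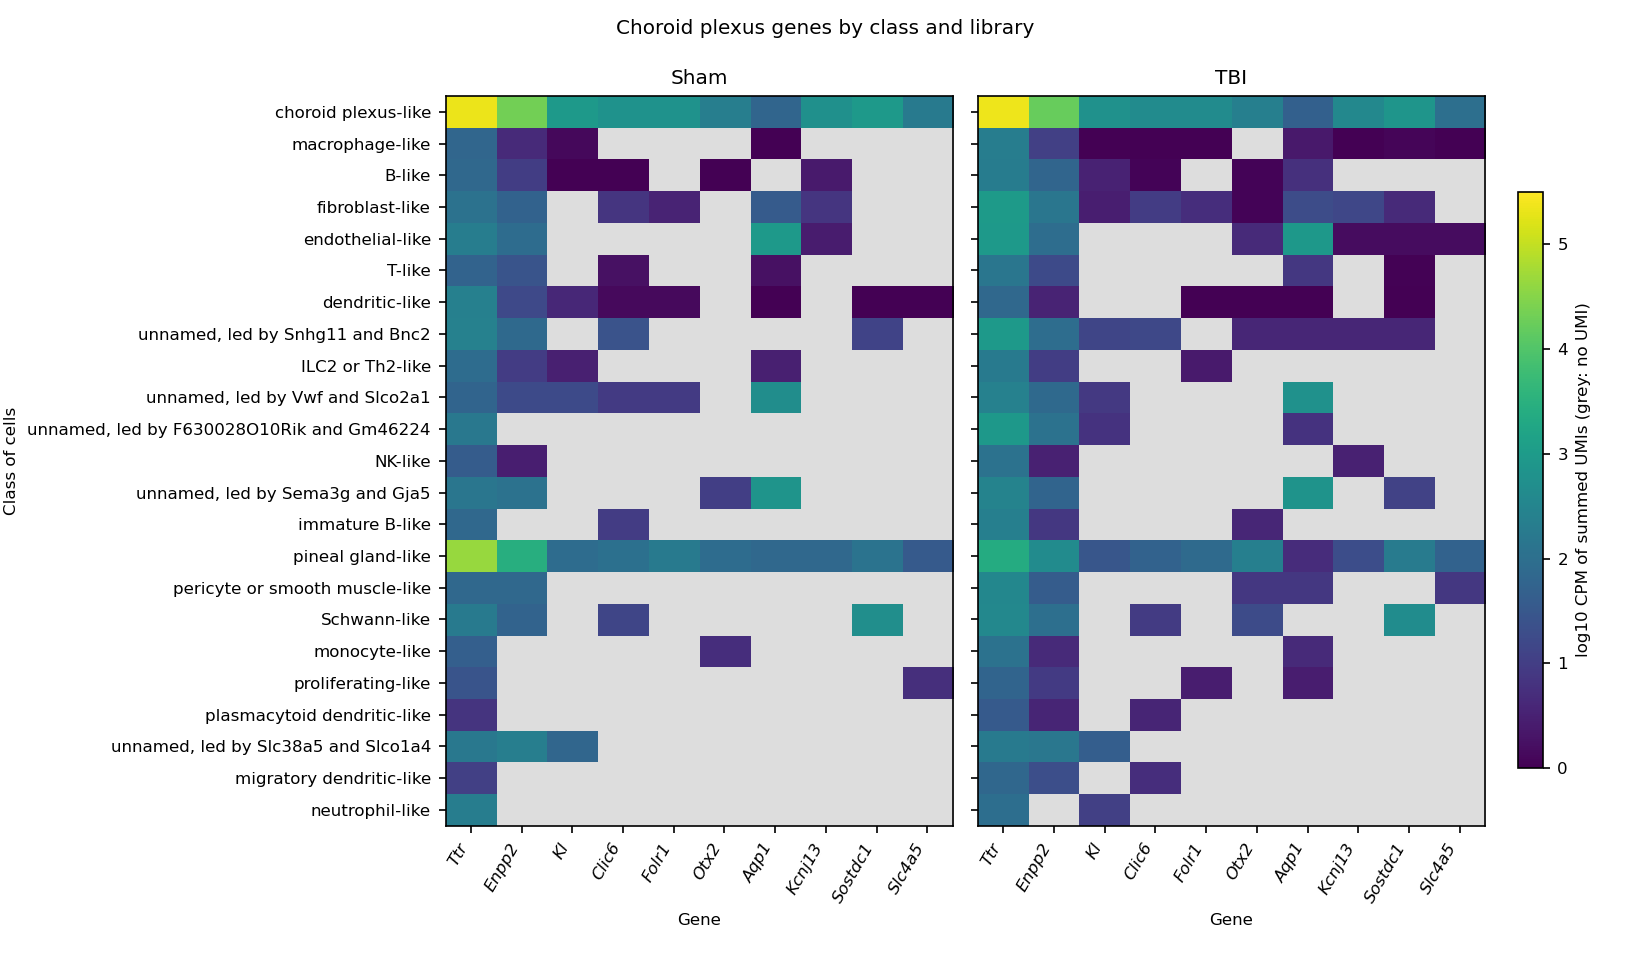
Summed level of each gene (columns) in each class of cells (rows) in the Sham and TBI libraries, as log10 CPM of summed UMIs, with grey for no UMI. The choroid plexus-like row is filled for all 10 genes, Aqp1 is brightest in endothelial-like cells and the unnamed clusters led by Sema3g and Gja5 or by Vwf and Slco2a1, and the pineal gland-like row of Sham is dominated by 1 cell with 2469 Ttr UMIs.

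All of the genes but Aqp1 were concentrated in the class. Of all UMIs of these 9 in filtered cells, between 86.9% (Sostdc1) and 95.8% (Enpp2) in Sham and between 75.1% (Otx2) and 97.2% (Ttr) in TBI lay in choroid plexus-like cells. Ttr was 507-fold higher in CPM in the class than in all other cells of the Sham library and 601-fold higher in TBI. The same ratio was 539 and 316 for Enpp2, 438 and 134 for Kcnj13, and 212 and 51.4 for Otx2. These ratios depend on a few cells outside the class with at least 50 Ttr UMIs, 2 in Sham and 7 in TBI. They held 84.0% and 59.7% of the Ttr UMIs there. Without them Ttr outside the class was 70.4 CPM in Sham and 157 in TBI, instead of 439 and 387. The Ttr ratio was then the higher in Sham. Enpp2 outside the class was 18.2 and 27.9 CPM without them. Aqp1 was the exception to the concentration in the class. Only 3.94% of its Sham UMIs and 3.66% of its TBI UMIs lay in the class, where its level was 0.967 and 0.647 of that in the other cells. The cells were clustered with the 10 genes left out, so the 10 did not place cells in the class directly. They were chosen as choroid plexus genes, with earlier results of these data known, so these ratios are no independent support for the name of the class.

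Every choroid plexus-like cell of either library held a Ttr UMI. The share of a cell's UMIs that were Ttr spread widely, as counts per 10000 from 126 to 4512 with a median of 1908 over the 59 Sham cells, and from 89.0 to 4647 with a median of 2176 over the 133 TBI cells. Enpp2 was seen in 56 Sham and 126 TBI cells, with a median of 155 counts per 10000 in Sham and 122 in TBI and a maximum of 1182 in Sham and 433 in TBI. The other genes were seen in fewer cells. Kl had a UMI in 78.0% of Sham and 73.7% of TBI cells, Clic6 in 83.1% and 70.7%, Sostdc1 in 74.6% and 69.9%, Folr1 in 59.3% and 57.1%, and Kcnj13 in 57.6% and 57.9%. Otx2 had one in 50.8% and 53.4%, Slc4a5 in 39.0% and 34.6%, and Aqp1 in 18.6% and 19.5%. After each cell had been thinned to 1000 UMIs, which left out 6 Sham and 17 TBI cells that were shallower, Otx2 was seen in 18.9% and 19.0%, Folr1 in 32.1% and 31.9%, Kcnj13 in 37.7% and 25% and Slc4a5 in 13.2% and 6.03%. The median cell held 7 of the 10 genes in Sham and 6 in TBI, and 4 in both libraries after thinning.

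Cells of the class varied with their mitochondrial UMIs. In 7 of 59 Sham cells (11.9%, 4.91 to 22.9) and 39 of 133 TBI cells (29.3%, 21.8 to 37.8) fewer than 0.5% of the UMIs were mitochondrial, a limit set after the values had been seen. The median share of Ttr was 19.9% of UMIs in the other Sham cells and 2.55% in these, and 23.9% and 6.22% in TBI. The ranges overlapped, at 1.26 to 18.9% against 3.56 to 45.1% in Sham and 0.890 to 38.6% against 3.80 to 46.5% in TBI. Enpp2 was 1547 CPM in the low-mitochondrial cells of Sham against 22834 CPM in the others, and 5401 against 19196 CPM in TBI. Folr1 had 0 UMIs in those of Sham, a count of 0 that allows up to 3, against 669 CPM in the others, and it had 142 against 530 CPM in TBI. Sostdc1 (372 against 829 CPM) and Kcnj13 (180 against 417 CPM) were also lower in the low-mitochondrial TBI cells, as was Aqp1 on 2 UMIs. In TBI the intervals of the log2 ratio of these cells over the others held 0 for Kl and Slc4a5. In Sham that ratio was -2.27 (-4.32 to -1.06) for Kl, at 187 against 1013 CPM on 4 UMIs in the low-mitochondrial cells. Kcnj13 and Sostdc1 were lower there too, on 2 and 1 UMIs, and the Slc4a5 interval held 0. Clic6 and Otx2 went the other way in TBI. Clic6 had 595 CPM in the low-mitochondrial cells against 422 CPM in the others, and Otx2 341 against 211 CPM. In Sham the low-mitochondrial cells held 18 UMIs of Clic6, 844 against 612 CPM, and 2 UMIs of Otx2, too few to compare. The low-mitochondrial cells still held a median of 6 of the 20 choroid plexus markers in Sham and 7 in TBI, where the others held 10 and 12. Their median depth was 2337 UMIs in Sham and 2112 in TBI, against 3000 and 4782 for the rest of the class.

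**Figure D2:**
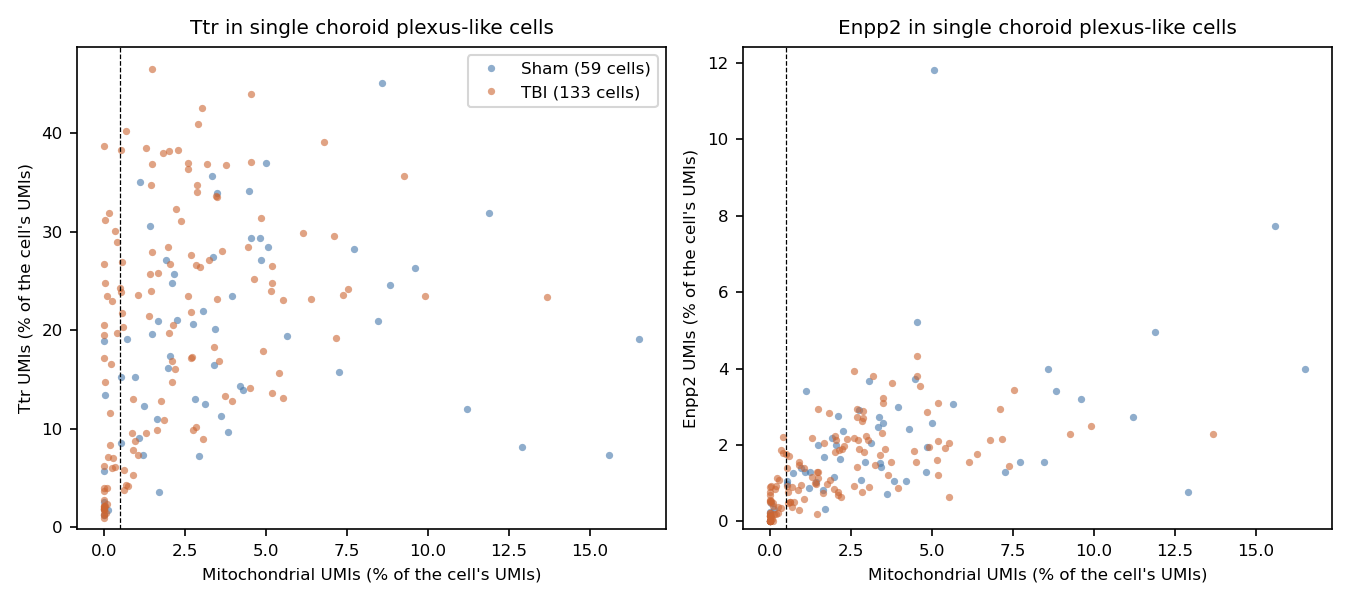
Each point is 1 choroid plexus-like cell, by its mitochondrial UMIs (horizontal axis, % of the cell's UMIs) and its Ttr (left) or Enpp2 (right) UMIs (vertical axis, % of the cell's UMIs), for 59 Sham and 133 TBI cells. The dashed line marks 0.5%, and to its left lie 7 Sham and 39 TBI cells, of which 4 and 17 had Ttr under 5% of their UMIs.

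Between the libraries, 8 of the 10 genes were lower in TBI than in Sham as a share of the UMIs of choroid plexus-like cells, where 55.2% of all genes were, with a median log2 ratio of -0.43 over the 10 genes and of -0.071 over the 7309 genes that reached 10 UMIs in these cells. Ratios are log2 of TBI over Sham CPM with 0.5 added to each count. The interval lay below 0 for 7 of the 10 genes, where 5.29% of all genes did so, and above 0 for 1, where 4.1% did so. Genes with more UMIs have narrower intervals, and the shares over all genes take in every gene from 10 UMIs, so they are not matched for depth. None of the 10 reached a log2 ratio of -1, which 8.25% of all genes did. With the class taken as all cells with at least 5 choroid plexus markers, Kl (-1.04) and Slc4a5 (-1.13) did. The share of low-mitochondrial cells was higher in TBI, and its part in these ratios was not tested, so each is also given without those cells. A few deep cells weigh on the Sham sums, since the 3 Sham cells with the most UMIs of a gene held from 22.9% (Clic6) to 55.0% (Aqp1) of its UMIs in the class, against 9.89% (Clic6) to 24.3% (Aqp1) in TBI.

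Among the secreted proteins, Ttr was 71332 UMIs in Sham and 179783 in TBI, or 222656 and 232568 CPM, a log2 ratio of 0.063 (0.050 to 0.075). Without the low-mitochondrial cells it was 0.14 (0.13 to 0.15). This was 1.04-fold, and the direction turned when the class was taken as all cells with at least 5 choroid plexus markers, which gave -0.35. Enpp2 was 6861 UMIs in Sham and 12612 in TBI, or 21416 and 16315 CPM, a log2 ratio of -0.39 (-0.44 to -0.35), and of -0.25 (-0.29 to -0.21) without the low-mitochondrial cells. Sostdc1 had 305 and 567 UMIs, 952 and 733 CPM and a log2 ratio of -0.38 (-0.58 to -0.17), or -0.30 (-0.50 to -0.084) without the low-mitochondrial cells. In cells thinned to 1000 UMIs its ratio was 0.071, so its direction turned with that step.

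Of the receptors, Kl had 307 UMIs in Sham and 467 in TBI, 958 and 604 CPM, with a log2 ratio of -0.67 (-0.88 to -0.45). The value without the low-mitochondrial cells, -0.70 (-0.92 to -0.48), was close to it. Folr1 had 200 and 347 UMIs, 624 and 449 CPM, and a log2 ratio of -0.48 (-0.73 to -0.22), or -0.34 (-0.59 to -0.075) without the low-mitochondrial cells. Its 3 highest Sham cells held 48.5% of its UMIs, and without the 3 highest cells of each library the ratio was 0.0061. That step takes a larger share of the 59 Sham than of the 133 TBI cells. The Folr1 ratio was -0.38 as a mean over cells and -0.24 after thinning to 1000 UMIs, and no other alternative turned its sign.

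The channels and transporters all had ratios below 0. Kcnj13 had 186 and 284 UMIs, 581 and 367 CPM and a log2 ratio of -0.66 (-0.93 to -0.39), and Slc4a5 55 and 77 UMIs, 172 and 99.6 CPM and -0.79 (-1.30 to -0.26), the largest difference of the 10. Clic6 had 201 and 354 UMIs, 627 and 458 CPM and -0.46 (-0.71 to -0.20). Without the low-mitochondrial cells these 3 ratios were -0.56, -0.70 and -0.54, each with an interval below 0. Aqp1, at 20 and 37 UMIs, had a ratio of -0.40 with an interval that held 0 (-1.21 to 0.48), and no difference was detectable at this depth. It was -0.24 (-1.06 to 0.65) without the low-mitochondrial cells. The transcription factor Otx2, at 72 and 184 UMIs and 225 and 238 CPM, had a ratio of 0.077 (-0.32 to 0.50), so no difference was detectable either. Without the low-mitochondrial cells the sign turned, to -0.15 (-0.58 to 0.29).

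**Figure D3:**
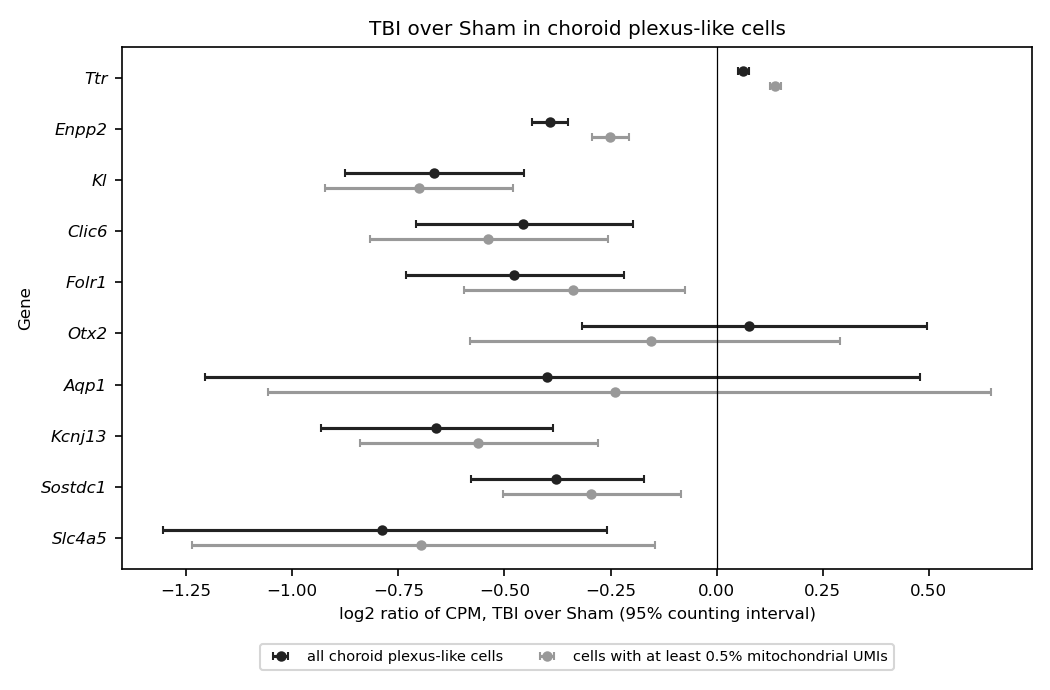
Log2 ratio of CPM, TBI over Sham, of each gene in choroid plexus-like cells with its 95% counting interval, for all cells of the class (black) and without cells under 0.5% mitochondrial UMIs (grey). Kl, Kcnj13, Slc4a5, Clic6, Enpp2, Folr1 and Sostdc1 lie below 0 with both choices, Ttr lies just above 0, and the intervals of Otx2 and Aqp1 hold 0.

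Other genes of the epithelium were taken from 6 lists, in which the markers used to name the class take part. Of the ion and water transport list, 12 of 15 genes had at least 10 UMIs in the class, 11 of them were lower in TBI, and the interval lay below 0 for 7 and above 0 for 0, with a median log2 ratio of -0.58. Over all genes tested in the class 55.2% were lower, 5.29% had an interval below 0 and 4.1% one above 0, which holds beside each list and is not matched for depth. Atp1b1, a subunit of the sodium pump, was 1027 CPM in Sham and 748 in TBI (log2 ratio -0.46, -0.66 to -0.26). Car2, a carbonic anhydrase (849 and 750 CPM), Fxyd1, a regulator of the pump (749 and 713 CPM), and Kcne2, a potassium channel subunit (387 and 361 CPM), had intervals that held 0. Of the list of nutrient, metal, drug and hormone transport, 9 of 13 were lower, with 6 intervals below 0 and 1 above and a median of -0.60. Slco1c1, a thyroid hormone transporter, had an interval below 0 (253 and 146 CPM, -0.79). Trf, transferrin, was the 1 above (90.5 and 188 CPM, 1.03, 0.47 to 1.68), and the copper transporter Slc31a1 was at 200 and 207 CPM. Of secreted proteins and their carriers, 11 of 12 were lower, with 5 intervals below 0 and 0 above and a median of -0.46. Igfbp2 (936 and 534 CPM, -0.81) and App (946 and 631 CPM, -0.58) showed larger differences than Clu (2207 and 1920 CPM, -0.20), while Cst3 was at 1810 and 1731 CPM with an interval that held 0.

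Retinoid handling and receptors had 7 of 9 genes lower with 2 intervals below 0 and 0 above and a median of -0.31. The prolactin receptor Prlr was 322 and 185 CPM (-0.80), the serotonin receptor Htr2c 125 and 169 CPM (0.43, -0.08 to 0.99), and the retinol dehydrogenase Rdh5 was at 459 and 449 CPM with an interval that held 0. Of the epithelium, junction and cilia list 6 of 10 were lower, with 2 intervals below 0 and 2 above and a median of -0.10. The keratins Krt8 (74.9 and 158 CPM, 1.05) and Krt18 (387 and 528 CPM, 0.44) were the 2 above, and the cilia genes Rsph1 (272 and 270 CPM) and Dynlrb2 (144 and 160 CPM) had intervals that held 0. Of the transcription factors 6 of 8 were lower, with 1 interval below 0 and 1 above and a median of -0.18. Msx1 was 802 and 951 CPM (0.24, 0.04 to 0.46), Foxj1 125 and 135 CPM, Zic1 37.5 and 34.9 CPM and Otx1 46.8 and 22.0 CPM. The Otx1 interval, on 15 Sham and 17 TBI UMIs, held 0 (-2.18 to 0.014), so Otx1 was not the 1 below 0.

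The largest ratios in the class belonged mostly to genes known from other cell types. Among genes with at least 100 UMIs, the 5 highest in TBI were Dlk1, C1qb, H2-Aa, Lyz2 and H2-Eb1. Dlk1 had 0 Sham and 290 TBI UMIs, 99.0% of them in 3 cells, and for C1qb (0 and 107) and H2-Aa (3 and 189) the top 3 cells held 81.3% and 90.5%. The 14 macrophage markers all had a UMI in the class and summed to 1373 CPM in Sham and 1806 in TBI, against 46148 and 47853 CPM in macrophage-like cells. The 5 lowest in TBI were Hba-a1, Hba-a2, Hbb-bs, the uncharacterised AY036118 and the calcium pump Atp2b3 (218 and 75 CPM, -1.54). The 6 red cell markers, 5 of them with a UMI, summed to 1124 CPM in Sham and 144 in TBI. The part of these other-cell genes in the ratios of the 10 genes was not tested.

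Outside the class, Aqp1 was highest in endothelial-like cells, Sostdc1 in Schwann-like cells and, in TBI, Otx2 in pineal gland-like cells, while Enpp2 was spread over several classes. As a reference, free RNA was taken to hold the genes in the proportion of choroid plexus-like cells, an assumption. The UMIs of each gene were set against the number expected from the Ttr UMIs of a class and the ratio of the gene to Ttr in choroid plexus-like cells of the same library. Among 198 pairs of a gene other than Ttr and 1 of 22 other classes, 24 had at least 3 UMIs in both libraries, and in 10 of these the observed count was above the expected one, by its interval, in both. These 10 were 5 of Enpp2, 4 of Aqp1 and 1 of Sostdc1. The interval covers the count of the gene only, and the counting error of the expected number is left out. In Sham that number rested on few Ttr UMIs in some of these classes. The unnamed clusters led by Slc38a5 and Slco1a4 and by Vwf and Slco2a1 held 5 and 7. Those led by Sema3g and Gja5 and by Snhg11 and Bnc2 held 14 and 20. The remaining pairs had fewer than 3 UMIs in at least 1 library or an interval that reached 1 in at least 1. The proportion was not kept for every gene in the barcodes over the hemoglobin limit, leaving out those of 50 or more Ttr UMIs. There Clic6 was 5.69 (1.17 to 16.6) times the expected number in Sham and 5.27 (1.09 to 15.4) times in TBI, on 3 UMIs each, Otx2 in TBI was 10.1 (2.09 to 29.6) times, on 3 UMIs, and Aqp1 172 and 521 times, on 9 and 31 UMIs. Whether the Aqp1 UMIs in these barcodes came from free RNA or from the captured cells themselves was not tested.

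Most Aqp1 UMIs lay in endothelial-like cells. They had 344 Sham and 577 TBI UMIs, 923 CPM (828 to 1026) and 857 CPM (789 to 930), against 62.4 and 47.9 CPM in choroid plexus-like cells. Unnamed clusters led by Sema3g and Gja5 (694 and 657 CPM) and by Vwf and Slco2a1 (490 and 618 CPM), genes known from arterial and from venous endothelium, followed. In endothelial-like cells Aqp1 was seen in 36.0% of Sham and 36.8% of TBI cells, and after thinning to 1000 UMIs in 30.7% and 29.4%. In choroid plexus-like cells thinned in the same way it was seen in 1 of 53 and 6 of 116 cells. Barcodes over the hemoglobin limit, of which 93.0% in Sham and 90.7% in TBI had at least 50% hemoglobin UMIs, held 9 Aqp1 UMIs in 604 Sham and 31 in 431 TBI barcodes. No difference between Sham and TBI was detectable in endothelial-like cells (log2 ratio -0.11, -0.30 to 0.09). In fibroblast-like cells Aqp1 had 11 and 33 UMIs, or 38.6 and 18.8 CPM.

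Otx2 was shared with pineal gland-like cells. In TBI, pineal gland-like cells held 48 Otx2 UMIs in 26 of 90 cells, at most 6 in 1 cell, a level of 238 CPM (176 to 316) equal to the 238 CPM (205 to 275) of choroid plexus-like cells. In Sham they held 5 UMIs in 3 of 33 cells, 88.5 CPM (28.7 to 206). Of these 5, 3 came from the cell that also held 2469 Ttr UMIs. After thinning, Otx2 was seen in 2 of 16 Sham and 9 of 61 TBI pineal gland-like cells, against 0.187% and 0.417% of all cells outside the choroid plexus-like class. Other genes were also above the Ttr proportion in TBI pineal gland-like cells once the 1 cell with 428 Ttr UMIs was left out. These were Enpp2 with 58 UMIs, 16.5 times the expected number (12.6 to 21.4), Folr1 with 16 UMIs spread over 14 cells, Slc4a5 with 11 UMIs over 8 cells, Clic6 with 11 UMIs, Kl with 6 and Kcnj13 with 4. Sostdc1 had 38, of which 24 lay in 1 cell. In the 32 Sham cells left after the same step, Enpp2 had 13 UMIs, 10.4 times the expected number, and each of the others except Aqp1, with 4, had 2 UMIs or fewer. Before that step only 3 Sham pineal gland-like cells held an Enpp2 UMI, and the cell left out was 1 of them.

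Sostdc1 was also found in Schwann-like cells, with 37 UMIs in 12 of 35 Sham cells and 51 in 17 of 47 TBI cells. Its level there was 510 CPM (359 to 703) in Sham and 466 CPM (347 to 613) in TBI, below the 952 and 733 CPM of choroid plexus-like cells, and in neither library did the intervals overlap. After thinning it was seen in 9 of 28 and 15 of 39 Schwann-like cells. The counts were 666 and 394 times those expected from Ttr.

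Enpp2 reached the widest set of classes. After choroid plexus-like cells, and apart from single cells high in Ttr, it was highest in pineal gland-like cells (317 and 291 CPM) and in an unnamed cluster led by Slc38a5 and Slco1a4, transporters known from brain capillaries, with 7 UMIs in 14 Sham and 18 in 43 TBI cells (225 and 155 CPM). The Sham pineal gland-like value came from 13 UMIs. Only 3 Sham pineal gland-like cells held an Enpp2 UMI, and 1 of these was left out as high in Ttr. Endothelial-like cells had 33 and 43 UMIs, 4.40 and 3.23 times the expected number, and fibroblast-like cells 15 and 58, 4.73 and 2.61 times. In the barcodes over the hemoglobin limit the same measure was 1.83 (1.26 to 2.58) in Sham and 1.13 (0.719 to 1.70) in TBI. Macrophage-like (7 Sham and 16 TBI UMIs), NK-like (1 and 1) and ILC2- or Th2-like cells (3 and 4) had intervals that held 1 in both libraries. In the NK-like and ILC2- or Th2-like cells the counts are too low to place Enpp2 at the expected proportion. Among TBI B-like cells, 42 of 56 Enpp2 UMIs came from 1 cell. Kl was also present in the cluster led by Slc38a5 and Slco1a4, with 2 Sham and 5 TBI UMIs. In TBI fibroblast-like cells without the predicted doublet that held 1429 Ttr UMIs, Clic6 had 15 UMIs and Kcnj13 17, 24.0 and 33.9 times the expected number, and Sham had 2 UMIs of each.

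**Figure D4:**
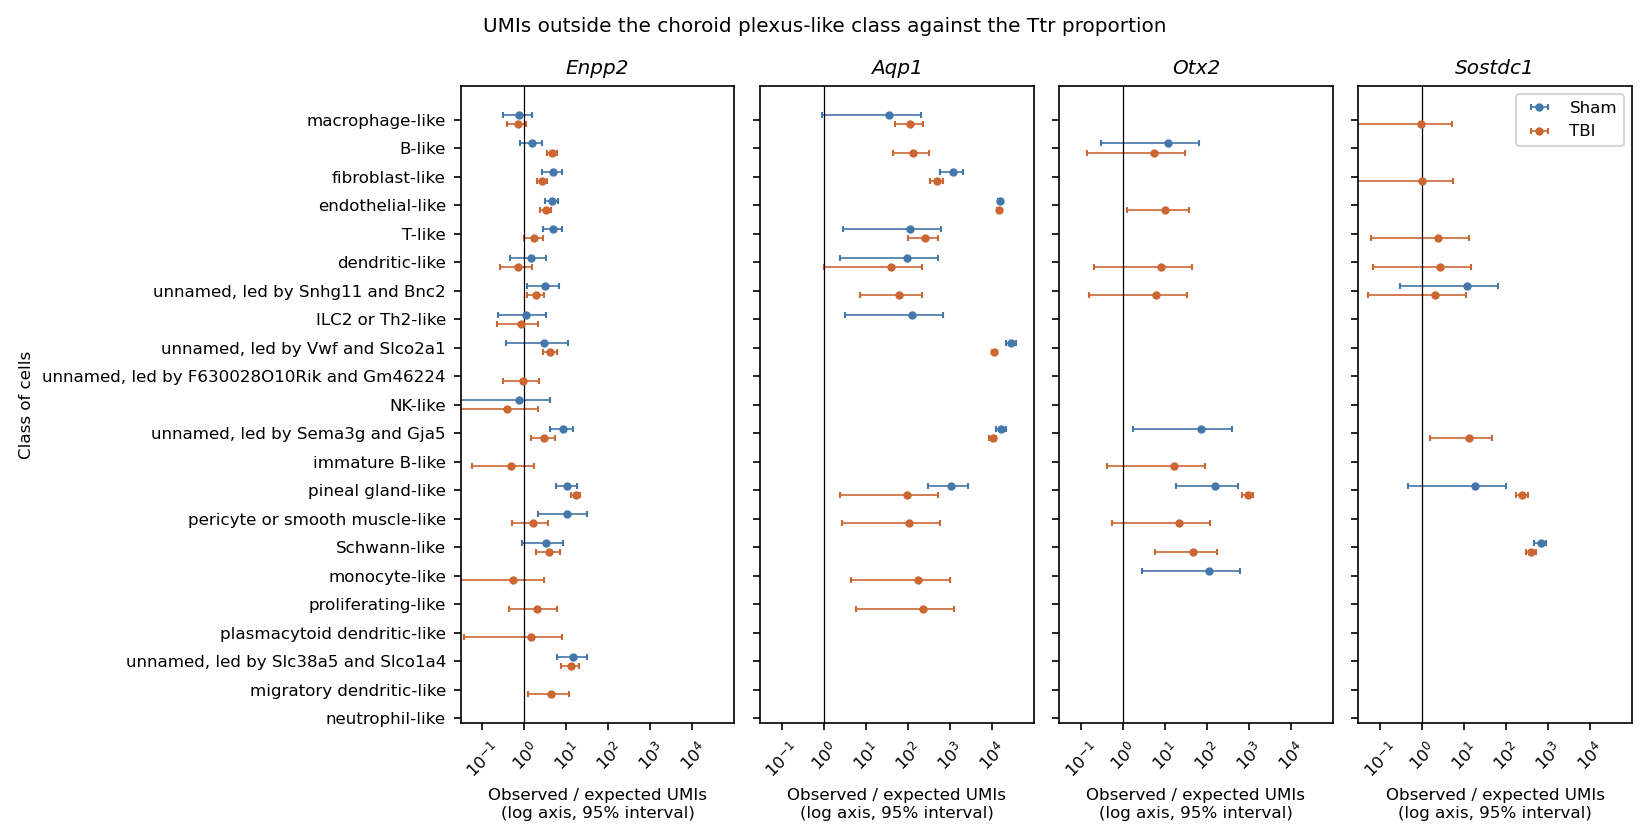
Observed over expected UMIs of Enpp2, Aqp1, Otx2 and Sostdc1 (horizontal log axis, with 95% Poisson intervals) in each class outside choroid plexus-like cells, Sham and TBI, without the 9 cells of 50 or more Ttr UMIs; classes with no UMI have no point. A value of 1 is the proportion to Ttr of choroid plexus-like cells. Intervals cover the observed count only, not the Ttr count behind the expected number. Enpp2 intervals hold 1 in macrophage-like cells and, on 4 UMIs or fewer, in NK-like and ILC2- or Th2-like cells. In endothelial-like, fibroblast-like and pineal gland-like cells Enpp2 lies above 1. Aqp1 reaches its highest values in endothelial-like cells and the clusters led by Vwf or Sema3g, TBI Otx2 in pineal gland-like cells and Sostdc1 in Schwann-like cells. Points of 1 or 2 UMIs can also lie far above 1.

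Ttr was found at a low level in all classes. Outside choroid plexus-like cells, 322 of 1984 Sham cells (16.2%, 14.6 to 17.9) and 1368 of 3640 TBI cells (37.6%, 36.0 to 39.2) held a Ttr UMI. Median depths of 2752 and 2639 UMIs were alike, and after thinning to 1000 UMIs the shares were 7.74% and 17.8%. The share was higher in TBI in 21 of the 22 classes, the exception being the 16 and 26 neutrophil-like cells. Over classes it ran from 5.26% to 37.5% with a median of 16.6% in Sham, and from 20.0% to 46.5% with a median of 37.4% in TBI. Within classes depth could differ, as in macrophage-like cells with medians of 2937 and 4573 UMIs. After thinning, 21 of 22 classes were again higher in TBI, though fibroblast-like (17.9% and 18.2%) and monocyte-like cells (8.82% and 9.09%) were close. Barcodes over the hemoglobin limit, with a median of 77.1% hemoglobin UMIs in Sham and 76.3% in TBI, gave 21.2% (18.0 to 24.7) in Sham and 42.5% (37.7 to 47.3) in TBI at median depths of 2122 and 1476 UMIs. The shares of most classes were at or below these values, though depths differed and the hemoglobin barcodes were not thinned. Among those above were fibroblast-like (34.2%), neutrophil-like (37.5%) and pineal gland-like cells (27.3%) in Sham, and pericyte- or smooth muscle-like cells (46.5%) in TBI. The source of the Ttr UMIs in other cells was not tested.

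**Figure D5:**
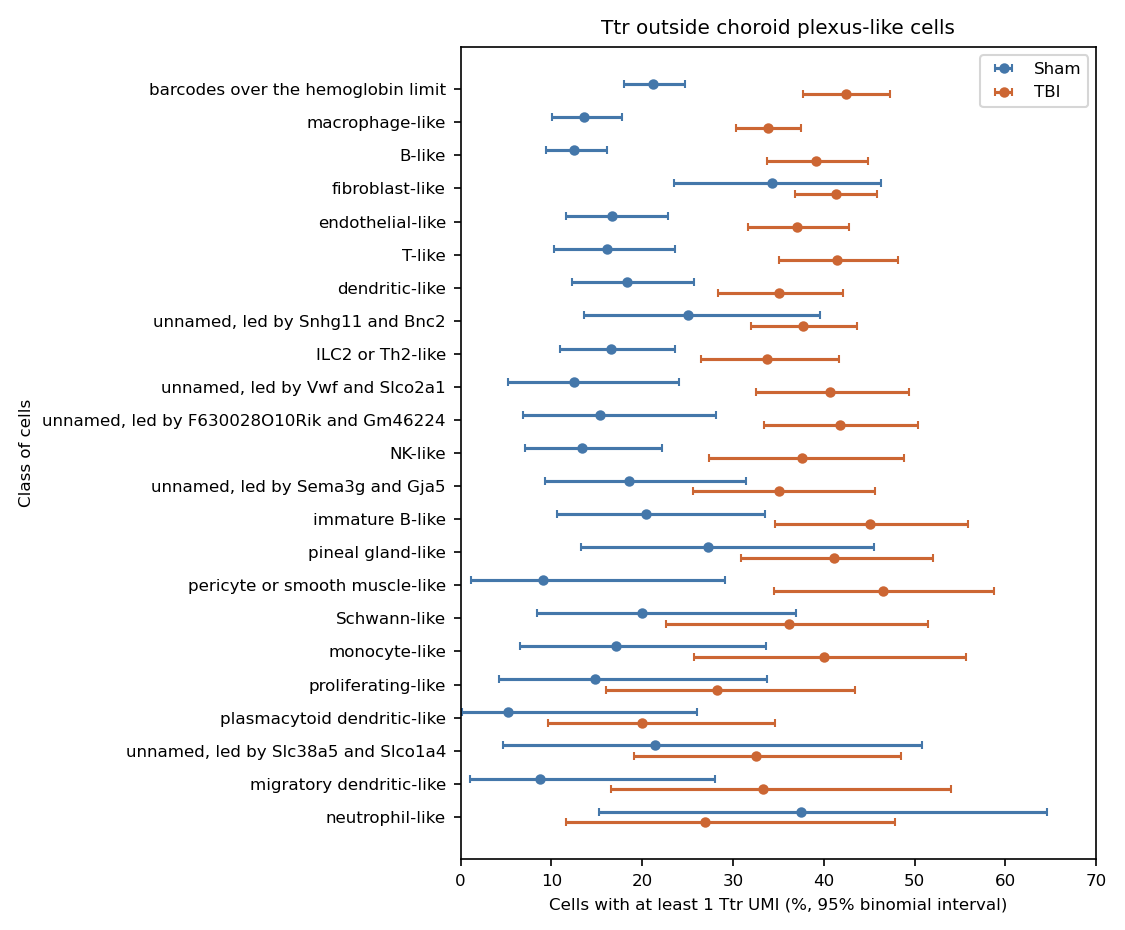
Share of cells with at least 1 Ttr UMI (horizontal axis, %, with 95% binomial intervals) in barcodes over the hemoglobin limit and in each class outside choroid plexus-like cells, for Sham and TBI. TBI lies to the right of Sham in 21 of 22 classes, and in the hemoglobin barcodes at 42.5% against 21.2%.

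Summed levels outside the class gave another picture, because 9 cells with at least 50 Ttr UMIs, 2 in Sham and 7 in TBI, held 69.3% of the Ttr UMIs of other cells. In Sham the 2 cells, 1 of them pineal gland-like with 2469 Ttr UMIs and 9 of the 10 genes, held 84.0%. In TBI the 7 held 59.7%, the highest of them a predicted doublet among fibroblast-like cells with 1429. With all cells the level was 439 CPM in Sham and 387 in TBI, a log2 ratio of -0.18 (-0.25 to -0.12). Without the 9 cells, a step chosen after seeing the data, it was 70.4 and 157 CPM, a ratio of 1.15 (1.01 to 1.29), and the mean was 0.267 and 0.566 Ttr UMIs per cell, 2.12 times as many in TBI. Summed over the library, choroid plexus-like cells held 71332 Ttr UMIs in Sham and 179783 in TBI, 2.52 times as many. That sum is not divided by the number of other cells (1984 in Sham and 3640 in TBI), so it is not on the scale of the 2.12. Choroid plexus-like cells were 1.23 times as many per other cell in TBI. Ratios in classes without the 9 cells were above 0 in 19 of 22.

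Outside the class the median log2 ratio was 0.40 over the 10 genes and 0.11 over all 15774 genes of at least 10 UMIs. Intervals lay above 0 for 4 of the 10 genes (Enpp2, Otx2, Aqp1 and Kcnj13), where 26.8% of all genes at that depth had one. Nothing is read from that count. One gene, Otx2, reached a log2 ratio of 1, where 11.7% of all genes did. It had 8 UMIs in Sham and 61 in TBI, 1.06 and 4.63 CPM and a ratio of 2.05 (1.06 to 3.40), and 48 of the 61 lay in pineal gland-like cells, of which there were 33 in Sham and 90 in TBI. Enpp2 had 300 and 679 UMIs and a ratio of 0.37 (0.18 to 0.58), which turned to -0.31 with predicted doublets removed. Aqp1 had 487 and 974 UMIs and 0.20 (0.04 to 0.36), and its mean per cell gave -0.24. Kcnj13 had 10 and 36 UMIs and 0.99 (0.00 to 2.22). Of its 36 TBI UMIs, 26 lay in fibroblast-like cells, of which there were 73 in Sham and 482 in TBI. Kl, Clic6, Folr1, Sostdc1 and Slc4a5 had at most 46 Sham UMIs outside the class, and their intervals held 0.

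Across 46 sums, 23 classes in 2 libraries, the pattern of a gene was compared with that of 13086 genes by Pearson r of log2(CPM + 10). The sums share free RNA, depth and the single choroid plexus-like class, so r is a description. Among pairs of the 10 genes r was highest for Folr1 with Kcnj13 and for Folr1 with Slc4a5, at 0.97 each. Ttr was most like Nme5 and Enpp2 (r of 0.92 and 0.91), Kl like Maob (0.93), Clic6 like the prolactin receptor Prlr (0.95) and Folr1 like Defb11 (0.99). Kcnj13 was most like Frmpd1os (0.98), Otx2 like Prcd (0.97) and Krt8 (0.96), and Sostdc1 like Vat1l (0.96). Aqp1 stood apart from the other 9, with r from 0.08 to 0.38, and was most like the endothelial gene Plvap (0.93), Enpp3 (0.92) and Meox1 (0.90).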

How the data were processed

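The authors mapped the reads to mm10 with Cell Ranger, for which their processing notes name version 2.1.1 and the matrix headers 3.1.0 (the paper's methods name an earlier one), and deposited UMI counts per gene and called barcode without normalization. For the annotation release, a version was not given in the sources used here. Counts are whole numbers. From these counts, cells with 150 to 5000 genes, at most 20% mitochondrial and at most 5% hemoglobin UMIs were kept, as the paper's methods state. Both libraries were clustered together (2000 variable genes with the 10 genes left out, 20 principal components, 20 neighbours, Leiden resolution 0.8, leidenalg 0.10.2, Python 3.11.15). A cluster took the name of a class with 3 or more markers among its 50 leading genes. Markers come largely from the study's own tables, so a difference from its populations may come from the rebuilt names. Doublets were predicted by simulation (0.8% per 1000 cells) and left in. UMIs were summed per class and library and scaled to 1e6 (CPM). Expected UMIs of a gene are the Ttr UMIs of a class times the gene-to-Ttr ratio of choroid plexus-like cells. A floor of 3 counts was 9.36 CPM in the Sham and 3.88 CPM in the TBI choroid plexus-like sum. The ratio and its interval were tried on simulated independent Poisson counts, with no spread between cells or animals. There 97.06% of the intervals held the true value. Because the interval assumes such counts, this does not show how it holds under the spread between cells or animals in the real data.

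With 1 library per group no test was made and intervals cover counting error only. Genes named are the 10, up to 4 genes with most UMIs of each companion list, the 5 largest ratios each way, and the genes most alike in pattern. A few genes that this rule names are left out of the text. The members and all lists were chosen with earlier results of these data known. Gene positions come from GENCODE vM21 (GRCm38). Alternatives changed clustering, filters, doublets, scaling, pseudocount, depth and single cells. Steps without cells under 0.5% mitochondrial UMIs or with 50 or more Ttr UMIs were chosen after seeing the data.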

Additional observations from a re-analysis of the deposited data

Results flagged for a closer look

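Ttr, Enpp2 and Kcnj13 had opposite directions in choroid plexus-like cells and in all other cells, each with an interval that left out 0, and the difference between the settings was not tested. As log2 of TBI over Sham, the values were 0.063 in choroid plexus-like cells and -0.18 in other cells for Ttr, -0.39 and 0.37 for Enpp2, and -0.66 and 0.99 for Kcnj13. The Ttr value in other cells turned to 1.15 without the 9 cells of 50 or more Ttr UMIs, the Ttr value in choroid plexus-like cells to -0.35 with the class taken as cells with at least 5 markers, and the Enpp2 value in other cells to -0.31 without predicted doublets. With the 9 cells left out instead, the Enpp2 value in other cells was 0.61 (0.33 to 0.91). Kcnj13 had 10 Sham and 36 TBI UMIs in other cells. Of the TBI ones, 26 lay in fibroblast-like cells, and 9 of these in 1 predicted doublet. Without the 9 cells of 50 or more Ttr UMIs its ratio there was 1.17, with an interval that held 0 (-0.066 to 2.83). Each group is 1 library, so every sample of a setting is 1 value.

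Barcodes over the hemoglobin limit, which the comparisons leave out, held Ttr UMIs above the limit that a count of 0 allows. A Ttr UMI was found in 21.2% of the 604 Sham and 42.5% of the 431 TBI barcodes, with 187 and 520 Ttr UMIs in all, 231 of the TBI ones in 2 barcodes.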

How the results depend on the processing

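No paired analysis was possible because each group has 1 library and the labels give a single replicate number. The count of genes lower in TBI in choroid plexus-like cells, 8 of 10, ran from 6 to 10 over 13 alternatives. Among ratios there with an interval that left out 0, 3 turned sign: Ttr was -0.35 in cells with at least 5 choroid plexus markers, Folr1 0.0061 without the 3 cells with the most UMIs of the gene, and Sostdc1 0.071 after thinning to 1000 UMIs. Of those whose interval held 0, Otx2 was -0.33 in cells with at least 5 markers and Aqp1 0.99 after thinning. Outside the class the Ttr ratio of -0.18 turned to 0.056 without the hemoglobin limit, 1.72 with the class taken as cells with at least 5 markers, 1.14 as a mean over cells, 0.93 after thinning, 1.68 without the 3 highest cells of each library and 1.15 without cells of 50 or more Ttr UMIs. It was -0.84 with predicted doublets removed, -0.040 with the 10 genes kept among the variable genes and -0.26 per cell. In other cells Enpp2 turned to -0.31 without predicted doublets, and Aqp1 to -0.24 as a mean over cells and -0.10 after thinning. Enpp2 was 0.61 there without cells of 50 or more Ttr UMIs. The share difference of 0.637 percentage points was 2.49 with the class taken by markers, and 0.481 to 0.805 otherwise. The count of 10 gene and class pairs above the Ttr proportion ran from 8 to 13. Settings that leave out cells do so by construction, and for the others the cause was not tested. Depth limits Aqp1, Otx2 and Slc4a5 in choroid plexus-like cells, at 20 to 72 Sham UMIs.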
